A study of Mus musculus with 12 samples.

Results

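B16F10 cells, a pigmented mouse melanoma line, were compared after 24 h in medium from interferon-treated macrophages and after 24 h in medium from untreated macrophages. The 2 groups were chosen by their sample titles and made up 6 of the 12 RNA sequencing libraries in the series, 3 each. Of 55487 annotated genes, 14591 had enough reads to be tested. In the first group, M1, bone-marrow-derived macrophages (BMDM) had been given 20 ng/ml of interferon gamma (the labels spell it INF-γ) for 24 h before their medium was collected. In the second, M0, the BMDM had been kept in control medium (DMEM). The melanoma cells carried the genotype label WT in both groups. Melanoma cells grown in medium of BMDM given 20 ng/ml of IL-4, the M2 group, served as another set of 3 libraries without interferon treatment. The remaining 3 libraries of the series entered only the filter on reads, the scaling of libraries and the estimate of the spread. The labels do not say whether the cytokine was removed before the medium was transferred, so interferon gamma carried over and products of the macrophages cannot be told apart here. Separate cultures are not named for the libraries of a group either, and the p-values therefore rest on a spread between libraries that may be technical.

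Interferon gamma binds a receptor on the cell surface and activates the kinases JAK1 and JAK2. The signal acts through a DNA element called GAS and switches on a first wave of genes, among them Irf1, itself a transcription factor gene. A later wave follows from IRF1 and related factors at a second element, ISRE, and from newly made cytokines, receptors and inhibitors such as SOCS1. In pigment cells, MITF drives the melanosome and melanin genes, and interferon gamma is known to reduce pigmentation in melanocytes.

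Levels are given as CPM, counts scaled to the library size after TMM correction, and changes as log2 fold changes of M1 over M0 with their standard errors (SE). A gene was called at an adjusted p under 0.05 in edgeR's quasi-likelihood test, adjusted by Benjamini-Hochberg over all genes tested. Totals ran from 17266441 to 20049860 counts in M1 and from 15916756 to 20863973 in M0. M0 replicate 1 stood apart from the other libraries. In it 8.17% of counts fell on genes of ribosomal proteins, a share of 3.65% to 4.26% elsewhere, and the mean exon length weighted by counts came to 4545 bp, while the other 11 libraries lay between 5817 and 6091 bp. The comparison was therefore repeated without this library, over 14968 genes. A gene is called stable below where both fits called it in the same direction and it averaged at least 1 CPM. Its 3 M1 values also had to lie apart from its 3 M0 values. Only protein-coding genes could be stable, and genes with symbols of predicted genes (such as Gm or Rik names) were left out. Shares of stable genes are still given over all genes tested, which include noncoding and predicted genes.

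In M1, 1777 genes rose and 1967 fell, 12.2% and 13.5% of the genes tested, and 966 of the rises (6.62% of the genes tested) and 494 of the falls (3.39%) reached 2-fold. Without M0 replicate 1, 3630 rose and 3426 fell (24.3% and 22.9%). Without M1 replicate 1, 2 or 3, the falls numbered 993, 1115 and 1050. A fit of the 6 M1 and M0 libraries alone called 891 higher and 391 lower. The fits with and without M0 replicate 1 both called 1754 genes higher (12%) and 1865 lower (12.8%). The 3 M1 values lay above the 3 M0 values in 2971 genes (20.4%) and below them in 3198 (21.9%). Of the genes called in both fits, 1417 rises and 1611 falls were stable (9.71% and 11% of the genes tested). The falls were smaller than the rises. The stable falls had a median of 1.54-fold, and 296 of the 1611 reached 2-fold and 32 reached 4-fold. The stable rises had a median of 1.91-fold, with 669 of 1417 at 2-fold or more and 297 at 4-fold or more. Against M2, the same M1 libraries had 1418 genes higher and 1094 lower (9.72% and 7.5%), or 3716 and 3517 (24.8% and 23.5%) once M0 replicate 1 left the shared estimate of spread. When 1 of the M1 or M2 libraries was left out, 626 to 686 genes were lower than in M2. Unless another fit is named, values against M2 below are from the 12-library fit, whose spread includes M0 replicate 1. A gene not called against M2 there can be called once that library leaves the fit. Counts of list members below are to be set against these shares, 12.2% higher and 13.5% lower with all libraries and 24.3% and 22.9% without M0 replicate 1. Because the comparisons with M0 and with M2 share the M1 libraries, their values are set side by side and do not count as separate evidence.

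**Figure D1:**
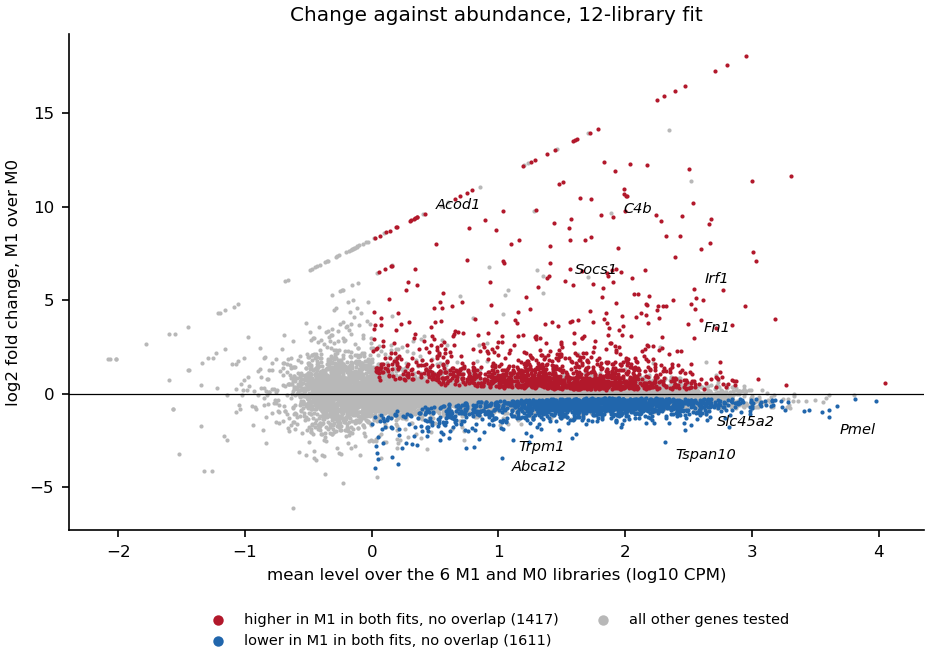
Each point is a tested gene, with its mean level over the 6 M1 and M0 libraries on the x axis (log10 CPM) and its log2 fold change of M1 over M0 in the 12-library fit on the y axis. Red points are the 1417 stable rises and blue points the 1611 stable falls, which stay closer to 0. The rising diagonal of points holds genes without a read in M0, whose fitted change depends on the prior count and is no bound.

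The all-library fit carried a trend with transcript length. The median log2 change was −0.28 in the shortest of 5 equal bins of genes by exon length and 0.18 in the longest bin, while the median over all genes was −0.02. Without M0 replicate 1 the bin medians lay between −0.01 and 0.03, and against M2 between −0.04 and −0.01. In M0 replicate 1 itself the shortest bin had a median of 0.41 and the longest a median of −0.72 on the log2 scale relative to the other M0 libraries.

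**Figure D2:**
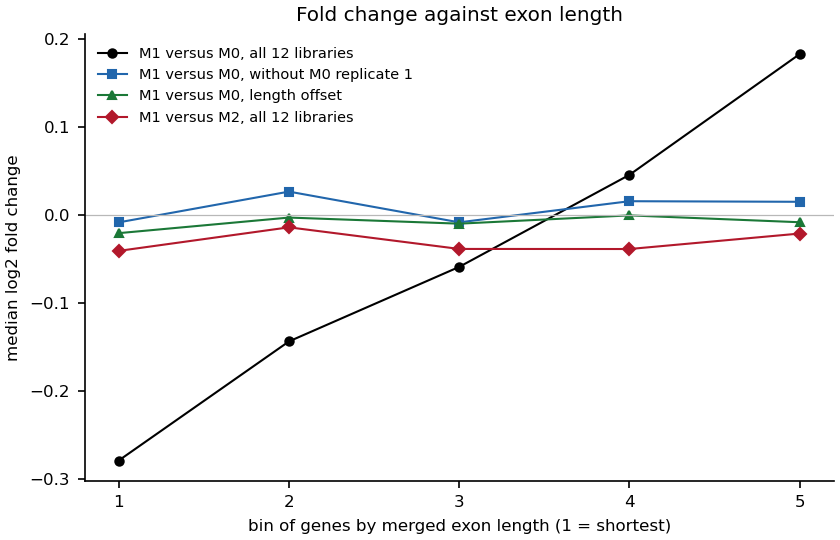
Median log2 fold change (y axis) in 5 equal bins of the tested genes ordered by merged exon length (x axis, 1 the shortest). The black line, M1 versus M0 with all 12 libraries, lies at −0.28 in the shortest bin and 0.18 in the longest, while the lines without M0 replicate 1, with a length offset and against M2 stay within 0.05 of 0.

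The cells carried melanocyte genes, and most macrophage markers were near or at 0. All 12 melanocyte markers were tested, and they summed to between 19976 and 20564 CPM in M1 and between 28150 and 30485 CPM in M0. Of 23 macrophage markers 4 were abundant enough to test, and together the 23 summed to 6.68 to 7.19 CPM in M1 and 5.32 to 8.81 CPM in M0, ranges that overlap. The call among the 4 was Fcer1g, lower in M1 at 0.156, 0.465 and 0.347 CPM against 1.23, 0.563 and 0.958 in M0, a call lost without M0 replicate 1, M1 replicate 1 or M1 replicate 3 (−1.57 to −1.17). Cd68, the most abundant of the 4, was higher in every M1 library, at 4.59, 4.01 and 4.81 CPM in M1 and 3.68, 2.94 and 2.4 in M0. It was not called with all libraries (0.58 ± 0.22, adjusted p = 0.0767), but was called higher without M0 replicate 1 (0.80, adjusted p = 0.00338) and against M2 (0.92, adjusted p = 0.0147). The part of macrophage RNA in the results below was not tested. Of the 23 macrophage markers 13 had 0 counts in M1 and 15 in M0. Ptprc, Adgre1, Itgam, Cd14, Tyrobp and Mrc1 were at 0 counts in all 6 libraries. Csf1r (0.149 CPM in M1 replicate 3) and Cx3cr1 (0.0521 and 0.0992 CPM in M1 replicates 1 and 3) had reads in M1 and none in M0. Spi1 had reads in all 6, at 0.0521, 0.0581 and 0.0992 CPM in M1 and 0.334, 0.25 and 0.0479 in M0.

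Most core genes of the interferon pathway were higher in M1. Only 24 h of exposure was sampled, so first and later waves cannot be told apart. Of 14 tested genes of the core pathway 11 rose and the other 3, which encode receptor chains, did not pass the test. Irf1 (chromosome 11, 53770014 to 53778374, plus strand, mm10) stood at 684, 685 and 681 CPM in M1 and 17.3, 11.8 and 13.5 in M0, a log2 difference of 5.59 ± 0.16 (± SE; adjusted p = 1.61e-09). Irf8, the gene of a partner of IRF1 best known from myeloid cells, was at 71.3, 77.6 and 74.7 CPM in M1 and 0.167, 0 and 0.144 in M0. Irf2, whose product occupies the same element as IRF1, reached 50.2 ± 0.698 CPM (SD, n = 3) in M1 and 11.3 ± 4.16 in M0. These values did not overlap between groups. A predicted antisense gene shares 907 bp of the Irf1 locus and rose too, and without a stated strand its reads cannot be separated from those of Irf1.

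Some inhibitors of cytokine signalling rose. Of 17 tested genes 4 rose (Socs1, Socs3, Usp18 and Ptpn2) and 2 fell (Socs2 and Pias4), with 6 lower without M0 replicate 1 and 1 without each M1 replicate. Socs1, which encodes an inhibitor of JAK kinases (chromosome 16, 10782240 to 10785536, minus strand), was at 57.9, 71.9 and 67.3 CPM in M1 and 1.78, 0.438 and 0.719 in M0 (6.05 ± 0.32, adjusted p = 1.28e-07, or 6.81 without M0 replicate 1, the highest M0 library). Usp18, an inhibitor at the type I interferon receptor, was at 67.7, 82.6 and 76.1 against 0.947, 1.81 and 1.25 CPM. Socs3, an inhibitor of signalling through gp130 that STAT3 induces, reached 41.1, 45.7 and 48.8 CPM in M1 and 15.4, 9.76 and 11 in M0. Each of these was higher in every M1 library than in any M0 library. Socs2, which restrains growth hormone signalling and is a STAT5 target, went the other way. It stood at 0.99, 0.697 and 0.546 CPM in M1 and 2.95, 3.57 and 4.07 in M0, a change of −2.24 ± 0.22 (adjusted p = 2.26e-05), and changed by −2.48 against M2.

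The promoters of Irf1 and Socs1 are shown because they hold matches to the elements of the first and later waves. Both are RefSeq windows of 300 bases, 250 before to 50 after the gene start, on the strand of the gene, in GRCm38 (mm10). The Irf1 window shown, chr11:53769764-53770063 (plus strand), has a GAS match in capitals, 90 bases before the start. Another RefSeq window of Irf1, chr11:53770223-53770522, held no match to either element. The Socs1 window, chr16:10785487-10785786 (minus strand), has a run in capitals made of 2 overlapping ISRE matches, which begin 83 and 77 bases before the start.
Irf1: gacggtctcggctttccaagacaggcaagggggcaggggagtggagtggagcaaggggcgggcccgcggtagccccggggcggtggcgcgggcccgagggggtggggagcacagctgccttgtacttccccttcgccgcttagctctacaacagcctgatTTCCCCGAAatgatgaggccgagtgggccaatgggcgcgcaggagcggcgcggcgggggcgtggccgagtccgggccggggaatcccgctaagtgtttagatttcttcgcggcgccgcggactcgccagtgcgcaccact
Socs1: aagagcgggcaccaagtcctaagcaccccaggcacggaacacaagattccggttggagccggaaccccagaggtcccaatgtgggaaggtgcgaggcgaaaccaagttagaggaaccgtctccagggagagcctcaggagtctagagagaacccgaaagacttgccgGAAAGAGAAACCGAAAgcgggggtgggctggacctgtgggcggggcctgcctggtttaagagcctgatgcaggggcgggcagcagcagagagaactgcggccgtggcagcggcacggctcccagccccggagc
GAS was searched as TTCNNNGAA and ISRE as GAAA, any 2 bases and GAAA, on both strands. A window was found for 10128 tested genes, and GAS matched in 8.26% of them and ISRE in 3.72%. Among 130 stable rises with symbols of interferon families (such as Gbp, Ifi, Irf, Stat and H2), ISRE matched in 46.2% and GAS in 19.2%. Among the 991 other stable rises ISRE matched in 5.45% and GAS in 9.69%, and among 1288 stable falls in 1.94% and 6.21%. These shares are descriptions of sequence, and a match is not a binding site.

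Outside those families, the 12 largest stable rises included genes without a read in M0. Tnfsf10, which encodes the death ligand TRAIL, was at 7.19, 13.2 and 9.57 CPM in M1 and at 0 in M0, at least 183-fold higher against a floor of 3 counts over the 3 M0 libraries. Acod1, the enzyme that makes itaconate, was at 5.16, 5.98 and 4.61 CPM in M1 and 0 in M0 (at least 95.9-fold). Both are better known from immune cells. Slamf8 and Mpeg1, genes of macrophage surface and pore proteins, averaged 4.03 ± 0.994 and 15.7 ± 1.11 CPM in M1 (SD, n = 3), with 0 counts and 1 count in M0. Whether macrophage RNA contributed to these reads was not tested. Prdm1, the gene of the repressor BLIMP1, was at 2.61, 3.08 and 2.63 CPM in M1 and at 0 in M0.

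Gja4, a gap junction gene, averaged 4.28 CPM in M1, Misp, a spindle protein gene, 4.08 and Asb15, a ubiquitin ligase adaptor gene, 2.31, each with 0 counts in M0. Ccrl2, a receptor that binds chemerin, averaged 11.2 ± 0.403 CPM in M1 and 0.0714 ± 0.0215 in M0. The olfactory receptor genes Olfr56 and Olfr1396 also met the rule, but the annotated body of Olfr56 overlaps Ifi47, Tgtp1, Tgtp2 and Olfr1396, all of them higher in M1, so reads of these loci cannot be assigned with certainty.

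Many cytokine and receptor genes rose. Of 35 genes of secreted cytokines and chemokines 15 had enough reads to be tested. Of these 11 rose and the other 4 did not pass the test, with a median log2 change of 2.46 against −0.02 over all genes tested. The read filter favours rises in such a list, so its share and median do not describe the untested members. The same limit holds for the other lists below with untested members. Csf1, the growth factor of macrophages, stood at 123, 135 and 138 CPM in M1 and 16.2, 21.3 and 21.9 in M0 (2.73 ± 0.12, adjusted p = 3.33e-08). Cxcl1, a neutrophil chemokine, averaged 7.19 ± 0.541 CPM in M1 and 0.164 ± 0.0519 in M0, and Lif, a cytokine that signals through gp130, 3.67 ± 1.12 and 0.252 ± 0.133. The groups did not overlap for these 3 genes. Of 26 cytokine receptor genes 17 were tested, of which 10 rose and 1, Il10rb, fell. Il12rb1, a receptor chain for interleukins 12 and 23, stood at 93, 85.6 and 91.1 CPM in M1 and 1.62, 0.501 and 0.671 in M0. Il15ra, which presents interleukin 15, averaged 5.43 ± 0.846 and 0.448 ± 0.156 CPM, and Il18bp, a decoy that neutralises interleukin 18, 68.1 ± 3.76 and 4.72 ± 0.499. Il10rb, a chain shared by receptors of the interleukin 10 family and of interferon lambda, had 18.5, 21 and 20.4 CPM in M1 and 47.7, 37.9 and 41.4 in M0, a change of −1.08 ± 0.12 (adjusted p = 4.93e-05).

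NF-kB is the transcription factor family through which tumour necrosis factor and interleukin 1 act, and many of its inhibitors are also its targets. Of 24 tested subunits and regulators 15 rose and the other 9 did not pass the test, with a median of 0.59. Without M0 replicate 1, 23 of the 24 rose, and without M1 replicate 1, 2 or 3 the count was 11, 10 and 10. Bcl3, an atypical IκB protein gene, was at 17.6, 17.2 and 18.6 CPM in M1 and 1.23, 1.56 and 0.958 in M0 (3.84 ± 0.20, adjusted p = 1.31e-07). The inhibitor gene Nfkbia was at 36.3, 39.1 and 46.3 against 15.6, 12.5 and 14.7 CPM, and Birc3, a ubiquitin ligase of the pathway, at 13, 13.2 and 12.7 against 1.84, 2.32 and 2.73. The groups did not overlap for any of these 3. Tnf itself was called higher, at a mean of 0.821 CPM in M1 and 0.138 in M0, below the level required of a stable gene, and lost its call when any 1 library other than M0 replicate 1 was left out (1.97 to 2.75).

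STAT3 and immediate early genes formed another group of rises. Of 20 tested STAT3 target genes 10 rose and 2, Myc and Mcl1, fell. There were 3 falls without M0 replicate 1, 0 without M1 replicate 1 and 1 without M1 replicate 2 or 3. Stat3 (chromosome 11, 100885098 to 100939540, minus strand) stood at 437, 469 and 468 CPM in M1 and 74.2, 108 and 101 in M0 (2.27 ± 0.13, adjusted p = 3.42e-07). In M2 it was at 161, 175 and 161 CPM, and M1 over M2 gave 1.47 ± 0.13 (adjusted p = 1.31e-05). Bcl6, a transcriptional repressor gene, was at 22.9 ± 0.829 CPM in M1 and 3.68 ± 0.449 in M0 (SD, n = 3). Of 22 tested immediate early genes 9 rose and 1, Nr4a1, fell, with 3 lower without M0 replicate 1 or 2. Atf3, a stress-responsive AP-1 partner, was at 82.5, 78.8 and 82.8 CPM in M1 and 13.8, 8.26 and 8.77 in M0, and Zfp36, whose product destabilises cytokine mRNAs, at 36, 35.3 and 41.1 against 5.24, 4.51 and 4.5. Jun and Fosl2, which encode AP-1 subunits, changed by 1.71 ± 0.09 and 2.20 ± 0.15. Nr4a1, a nuclear receptor gene induced by cyclic AMP in many cells, had 30.2, 32.8 and 34.1 CPM in M1 and 56.5, 53 and 50.6 in M0 (−0.72 ± 0.09).

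**Figure D3:**
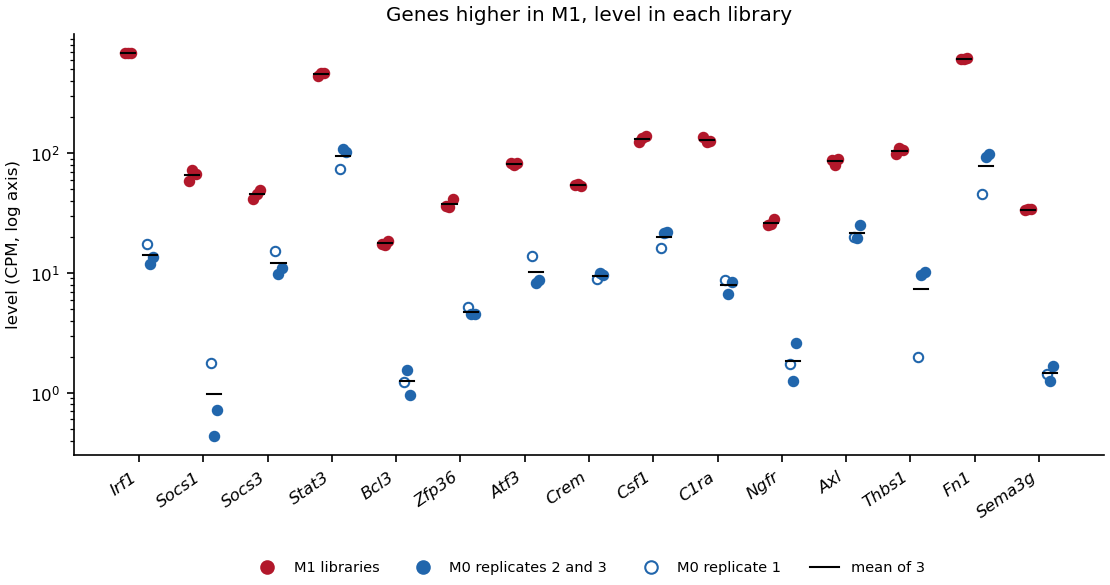
Level in each library (CPM, log axis) of 15 genes higher in M1, with M1 in red to the left of M0 in blue for each gene, M0 replicate 1 as an open circle and the mean of 3 libraries as a black bar. The 3 M1 values lie above the 3 M0 values for every gene shown, and M0 replicate 1 is lowest for the long transcripts Thbs1 and Fn1.

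Complement, coagulation and cell death genes rose as well. Of 32 complement and coagulation genes 18 were tested, of which 12 rose and 1, Procr, fell. C1ra and C1s1, the proteases of the first complement component, stood at 137, 123 and 126 and 25.1, 25.4 and 25.4 CPM in M1, against 8.69, 6.7 and 8.34 and 1.45, 1.25 and 2.16 CPM in M0. C4b, the next component of the cascade, averaged 158 ± 15.2 CPM in M1 and 0.212 ± 0.138 in M0, although reads of C4b and its near-identical copy C4a may have been divided between them. Pros1, which encodes the anticoagulant protein S, also a ligand of the receptors TYRO3 and MERTK, averaged 77.4 ± 0.884 and 22.6 ± 5.44 CPM. Of 20 genes of inflammasomes, pyroptosis and necroptosis 12 were tested. Of these 11 rose, with a median of 2.03, and the other, Gsdme, did not pass the test. Without M0 replicate 1 all 12 rose, Gsdme included, and without M1 replicate 1, 2 or 3, 9, 10 and 10 rose. The limit that the read filter sets applies to both lists. Gsdmd, the pore protein of pyroptosis, was at 42.4, 43.1 and 44.8 CPM in M1 and 4.68, 2.82 and 2.3 in M0. Of 25 apoptosis regulators 6 rose and 3 fell, the falls being Bax, Mcl1 and Birc5. Leaving out M0 replicate 1 gave 9 rises and 4 falls. The falls numbered 5 without M0 replicate 2 or 3 and 1 without M1 replicate 2 or 3. Birc5, the mitotic inhibitor of apoptosis survivin, was at 116, 121 and 121 CPM in M1 and 294, 175 and 172 in M0. Bax, a mitochondrial pore protein of apoptosis, was at 38.2, 35.3 and 37.1 CPM in M1 and 129.5, 59.4 and 51 in M0, where M0 replicate 1 was the highest. It changed by −1.12, by −0.54 without that library and by −0.51 against M2 (adjusted p = 0.274), and its call was lost without M1 replicate 2 or 3 (−1.12 to −1.08). Birc5 changed by −0.84 with all libraries, by −0.50 without M0 replicate 1, and by −0.40 against M2, where it was not called (adjusted p = 0.165). With M0 replicate 1 out of the fit, Birc5 was called lower than in M2 (−0.37, adjusted p = 1.34e-10).

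Adhesion and matrix genes were mixed. Of 61 collagens and matrix proteins 40 were tested, of which 16 rose and 8 fell. Of 34 integrins and cadherins 26 were tested, of which 10 rose and 3 fell (Itga9, Itgb4 and Cdh1). Of the integrins and cadherins 7 fell without M0 replicate 1 and 1 without M1 replicate 3. Fn1, which encodes fibronectin, was at 614, 604 and 619 CPM in M1 and 45.6, 92.8 and 97.6 in M0. Thbs1, which encodes thrombospondin 1, was at 97.7, 109.6 and 106 against 2.01, 9.58 and 10.3 CPM. M0 replicate 1 was the lowest library for both, and without it the changes were 2.72 and 3.43, against 2.96 and 3.84 with it and 2.48 and 3.50 against M2. Cdh6, a cadherin of the neural crest, averaged 6.73 ± 0.432 CPM in M1 and 0.231 ± 0.14 in M0, and Itga2, a collagen-binding integrin chain, 5.9 ± 0.307 and 0.393 ± 0.299. Itga9, a chain that binds tenascin and osteopontin, fell, with 30.5, 28.3 and 28.6 CPM in M1 and 44.7, 65.8 and 63.3 in M0 (−0.99 ± 0.14, adjusted p = 0.000434). Fbln1, a fibulin of elastic matrix, had 84.7 ± 2.23 and 178 ± 36.1 CPM, and Timp2, an inhibitor of matrix metalloproteases, 143 ± 10.1 and 228 ± 31.1. Cdh1, the gene of E-cadherin, was low in these cells, with 0.313, 0.29 and 0.248 CPM in M1 and 0.725, 0.688 and 1.1 in M0, and was not called without M1 replicate 3 (−1.46). Of 25 matrix proteases and their inhibitors 5 rose (among them Mmp2, Mmp19, Adamts4 and Plat) and 5 fell (Mmp14, Mmp15, Mmp17, Timp2 and Adam12). Mmp19, a metalloprotease of basement membranes, was at 2.24, 2.21 and 2.33 CPM in M1 and 0.0557, 0.125 and 0.192 in M0, and Adam12, a membrane-bound protease, at 8.13, 6.04 and 6.25 against 9.03, 18.8 and 22.1, with no overlap in either. The fit without M0 replicate 1 had 12 proteases and inhibitors higher, and without M1 replicate 2 or 3, 5 matrix proteins fell. Matrix genes therefore did not move as one set.

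Axon guidance molecules steer migrating neural crest cells as well as nerve endings. Of 65 such genes 50 were tested, of which 11 rose (22%) and 7 fell (14%, close to the 13.5% of all genes). The counts were 15 and 13 without M0 replicate 1, and without M1 replicate 1, 2 or 3, 5, 6 and 6 rose and 3, 2 and 3 fell. Sema3g, a secreted semaphorin, stood at 33.4, 33.9 and 34.1 CPM in M1 and 1.45, 1.25 and 1.68 in M0 (4.52 ± 0.18, adjusted p = 1.3e-08). Plxnc1, the plexin that binds semaphorin 7A, was at 182, 195 and 184 against 35.9, 61.2 and 66 CPM, whereas Sema7a, its ligand, was at 2.08, 1.51 and 2.03 against 4.4, 6.07 and 4.07. The receptor was thus higher and the ligand lower in M1 (1.78 ± 0.18 and −1.36 ± 0.21). Of 26 genes of a neural crest-like state 14 were tested, within the limit that the read filter sets. Of these 5 rose (Ngfr, Axl, Nes, Snai2 and L1cam). The falls numbered 2 (Sox9 and Cdh1), or 4 without M0 replicate 1 and 1 without M1 replicate 3. Ngfr, the low-affinity neurotrophin receptor of neural crest cells, was at 25.1, 25.5 and 28 CPM in M1 and 1.73, 1.25 and 2.59 in M0. Axl, the receptor tyrosine kinase for GAS6, was at 86.8, 80.1 and 89.1 and 19.9, 19.5 and 25.3. Snai2, a transcription factor of migrating neural crest cells, averaged 5.59 ± 0.553 CPM in M1 and 2.67 ± 0.892 in M0 (SD, n = 3). All 3 were called against M2 as well, with changes of 3.47 for Ngfr, 1.74 for Axl and 1.21 for Snai2. Sox9, another neural crest regulator, did not follow them, with 2.87, 3.2 and 3.87 CPM in M1 and 5.74, 9.58 and 8.29 in M0 (−1.24 ± 0.20, adjusted p = 0.000924).

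Metabolic genes moved in both directions. Of 14 tested genes of tryptophan, arginine, biopterin and itaconate metabolism 4 rose (Nos2, Gch1, Acod1 and Nampt) and 3 fell (Spr, Qdpr and Ass1), with 1 lower without each M1 replicate. Nos2, the inducible nitric oxide synthase, was at 1.2, 1.63 and 1.44 CPM in M1 and at 0 in M0, at least 26-fold higher against the floor. Gch1, the first enzyme of the synthesis of its cofactor biopterin, averaged 6.61 ± 1.21 CPM in M1 and 3.68 ± 1.53 in M0, while Spr and Qdpr, enzymes that complete and recycle that cofactor, changed by −0.69 ± 0.22 and −0.45 ± 0.13. The calls of Gch1, Spr and Qdpr were lost when any 1 M1 replicate was left out, with changes of 0.58 to 0.95 for Gch1 (here also without M0 replicate 2 or 3), −0.73 to −0.66 for Spr and −0.46 to −0.42 for Qdpr. Nampt, the rate-limiting enzyme of NAD salvage, stood at 479.7, 536 and 474 CPM in M1 and 119, 196 and 183 in M0. Ass1, an enzyme that makes arginine from citrulline, was at 19.3, 14.9 and 20.6 against 59.7, 30.5 and 42.6 CPM (−1.28 ± 0.21, adjusted p = 0.00143). Of 27 tRNA synthetases 7 rose and the other 20 did not pass the test, led by Wars, the tryptophan enzyme and an interferon-inducible gene, at 459, 450.2 and 450.5 against 252, 195 and 198 CPM. The count of synthetases that rose was 15, with 3 lower, without M0 replicate 1, and 3, 5 and 4 without M1 replicate 1, 2 or 3. Cp, which encodes the iron oxidase ceruloplasmin, averaged 102 ± 5.17 CPM in M1 and 14.2 ± 1.9 in M0, and Acacb, an acetyl-CoA carboxylase of mitochondria, 58.1 ± 3.34 and 18 ± 1.11. Crem, a cyclic AMP-responsive repressor and activator gene, was at 54.2, 54.8 and 53 CPM in M1 and 8.86, 10.01 and 9.54 in M0, and Tcf7, a transcription factor of the Wnt pathway, at 45.2, 41.9 and 40.8 and 8.69, 7.7 and 9.87. Most of the Wnt list did not pass the test, with 2 of 26 genes higher (Tcf7 and Dkk3) and 4 lower (Tcf7l1, Lgr5, Fzd9 and Wnt6), or 6 higher and 9 lower without M0 replicate 1 and 2 lower without each M1 replicate. Dkk3, of the dickkopf family of secreted proteins, stood at 115, 116 and 126 CPM in M1 and 41, 48.3 and 50.03 in M0. In the cyclic AMP list 5 of 24 genes were higher (Crem, Pde4a, Pde4b, Nr4a2 and Fos) and 3 lower (Adcy2, Prkaca and Nr4a1), a share of 12.5% lower that is close to the 13.5% of all genes. Without M0 replicate 1, 6 were higher and 7 lower, and without M1 replicate 3, 3 were higher.

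Among the falls, pigment genes included some of the most abundant transcripts of these cells. Of 35 tested genes of pigment enzymes and melanosomes 16 fell and 2 rose (Tpcn2 and Mfsd12), with a median of −0.28, and without M0 replicate 1 22 fell and 4 rose. Slc45a2, a melanosome transporter, stood at 231, 241 and 249 CPM in M1 and 649, 636 and 628 in M0 (−1.41 ± 0.08, adjusted p = 1.65e-07). Tspan10, a tetraspanin of the melanocyte lineage, was at 53.5, 60.7 and 62.8 against 438, 323 and 288 CPM, and Trpm1, an ion channel gene under MITF control, at 14.4, 14.6 and 16.1 against 73.2, 68.9 and 59.9. Mlph, the linker that holds melanosomes on the actin motor, was at 167, 184 and 176 and 434, 427 and 416 CPM. In each, every M1 library lay below every M0 library. Gpr143, the ocular albinism receptor, had 22.3 ± 0.584 CPM in M1 and 56.2 ± 14 in M0.

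The melanin enzymes did not move together. Tyr, the rate-limiting enzyme, was at 239, 254 and 236 CPM in M1 and 377, 629 and 613 in M0, a change of −1.15 ± 0.16 (−1.32 without M0 replicate 1, the lowest of the M0 libraries). Dct, dopachrome tautomerase (chromosome 14, 118012790 to 118052244, minus strand), was at 3558, 3688 and 3643 CPM in M1 and 6223, 5485 and 5429.9 in M0 (−0.65 ± 0.08, adjusted p = 0.000144). Tyrp1, the related oxidase, was at 5975, 6322 and 6116 CPM in M1 and 4789, 7375 and 7389 in M0, which overlap, and was not called with all libraries (adjusted p = 0.677). Without M0 replicate 1 Tyrp1 changed by −0.23 (adjusted p = 2.19e-07). Mitf, their shared regulator, was at 308, 415 and 332 CPM in M1 and 223, 580.4 and 568 in M0 (adjusted p = 0.342), where M0 replicate 1 was the lowest library. Without it Mitf was called lower (−0.67, adjusted p = 0.00163), and against M2 it changed by −0.64 without a call (adjusted p = 0.167). With M0 replicate 1 out of the fit, Mitf was called lower than in M2 (−0.61, adjusted p = 0.00154). Sox10, an activator of Mitf, was at 521, 568 and 553 CPM in M1 and 749, 554 and 533 in M0 (adjusted p = 0.349), or a change of 0.05 without M0 replicate 1. Of the 14 transcription factors and receptors of melanocytes tested, 3 fell (Kit, Sox9 and Gpr143) and 2 rose (Kitl and Erbb3), against 6 in each direction without M0 replicate 1. Erbb3, a receptor of neuregulins in this lineage, rose, with 195, 219 and 191 CPM in M1 and 54.1, 99.8 and 106 in M0, and Kitl, the ligand of the receptor KIT, averaged 5.6 ± 0.341 and 1.23 ± 0.907. Kit, whose product is that receptor, was low throughout, at 0.313, 0.116 and 0.347 CPM in M1 and 0.669, 1.38 and 1.39 in M0 (−2.09 ± 0.41, adjusted p = 0.00376), so ligand and receptor moved in opposite directions.

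The promoter of Dct is shown because it is one of the abundant falls with a matched window and holds matches to the E-box, the element that MITF binds. The window is chr14:118052197-118052496 (minus strand), from the same RefSeq set, and the capitals mark 2 E-box matches that begin 232 and 150 bases before the start.
Dct: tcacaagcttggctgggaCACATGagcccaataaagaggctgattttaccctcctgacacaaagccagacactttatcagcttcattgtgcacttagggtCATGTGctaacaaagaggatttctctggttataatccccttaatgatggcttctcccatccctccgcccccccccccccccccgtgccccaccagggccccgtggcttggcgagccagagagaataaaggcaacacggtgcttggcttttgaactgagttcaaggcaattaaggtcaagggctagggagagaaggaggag
The E-box was searched as CATGTG on both strands, and matched in 10.6% of the windows of stable falls, 10.3% of those of stable rises and 10.5% of all windows.

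**Figure D4:**
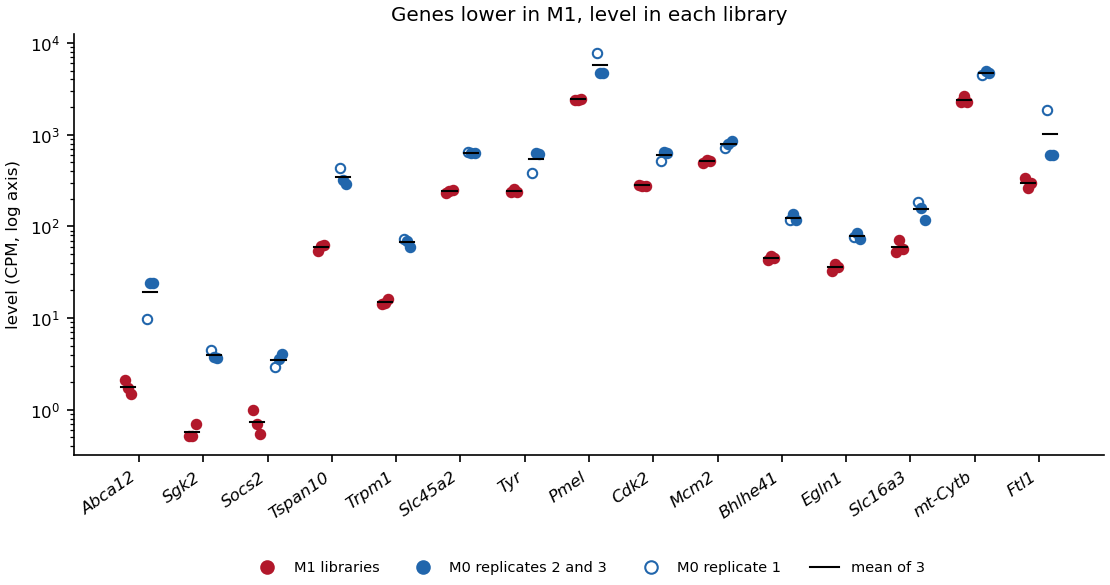
Level in each library (CPM, log axis) of 15 genes lower in M1, drawn as for the rises, with M1 in red to the left of M0 in blue. The 3 M1 values lie below the 3 M0 values for every gene shown, and the open circle of M0 replicate 1 lies above the other M0 values for Pmel and Ftl1 and below them for Abca12 and Tyr.

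Pmel and Mlana, which encode melanosome proteins, fell by more with M0 replicate 1 than without it. Pmel (chromosome 10, 128704195 to 128720238, plus strand) stood at 2395, 2411 and 2449 CPM in M1 and 7782, 4681 and 4687 in M0. Its change was −1.24 with all libraries, −0.92 without M0 replicate 1 and −0.77 against M2 (adjusted p = 0.00858). Mlana was at 599, 635 and 607 CPM in M1 and 1991, 977 and 956 in M0, with changes of −1.09 and −0.62, and was not called against M2 (−0.52, adjusted p = 0.171). With M0 replicate 1 out of the fit, Mlana was called lower than in M2 (−0.49, adjusted p = 3.18e-17). Cdk2 (chromosome 10, 128697939 to 128705031, minus strand), whose kinase drives entry into and passage through S phase, lies head to head with Pmel and shares 837 bp with it on the opposite strand, so part of its reads could be from Pmel. Cdk2 was at 282, 278 and 279 CPM in M1 and 511, 643 and 623 in M0 (−1.08 ± 0.10, adjusted p = 1.17e-05), with M0 replicate 1 the lowest M0 library. Whether reads of Pmel contributed to this fall was not tested.

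Many proliferation genes fell, by small amounts. Of 49 tested DNA replication genes 23 fell and the other 26 did not pass the test, with a median of −0.39, and of 51 mitosis genes 23 fell and 28 did not, with a median of −0.29. Without M0 replicate 1, 32 replication and 43 mitosis genes fell and 1 of each list rose. Without M1 replicate 1, 2 or 3, 12, 18 and 13 mitosis genes fell. Mcm2 and Mcm3, subunits of the replicative helicase, stood at 492, 534 and 521 and 295, 306 and 308 CPM in M1, against 712, 796 and 844 and 514, 445 and 457 CPM in M0. Cdc6, which loads that helicase, was at 52.1, 56.2 and 57.1 against 77.5, 88.8 and 90.8 CPM, and Cdc25b, a phosphatase that starts mitosis, at 58.6, 57.3 and 54.8 against 108, 97.1 and 94.1. These changes lay between −0.81 and −0.60, under 2-fold each, and the groups overlapped for none of the 4 genes.

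Of 31 tested G1 cyclins, E2F factors and pocket proteins 9 fell and 2 rose (Cdk6 and Cdkn2c). E2f2, an S-phase activator, averaged 25.9 ± 2.03 CPM in M1 and 38.7 ± 0.864 in M0. Cdk6, a G1 kinase, was one of the rises, with 39.2, 34.3 and 39.1 CPM in M1 and 12.2, 18.3 and 18.3 in M0 (1.21 ± 0.15, adjusted p = 0.000148). Of 32 nucleotide synthesis genes 11 fell and 3 rose (Samhd1, Upp1 and Pnp). Shmt1, which supplies one-carbon units to thymidylate, was at 32.8 ± 0.829 against 57.7 ± 5.01 CPM, and Rrm1, the large subunit of ribonucleotide reductase, at 380.0 ± 15.4 against 541 ± 18.4. Samhd1, which destroys deoxynucleotides and is interferon-inducible, rose instead, with 316, 337 and 329.6 CPM in M1 and 58.9, 58.1 and 64.1 in M0. In DNA repair 8 of 54 genes fell and 2, Rad51c and Wrn, rose, a share of falls of 14.8% that is close to the 13.5% of all genes tested. Parp1, the sensor of DNA breaks, fell to 214, 223 and 222 CPM in M1 against 329.8, 342 and 358 in M0. Calls in both directions were more numerous without M0 replicate 1, as over all genes, with 17 lower and 8 higher for G1 genes, 18 and 6 for nucleotide synthesis and 17 and 10 for repair. Without M1 replicate 1, 2 or 3 the falls numbered 5, 6 and 7 for G1 genes, 7, 7 and 6 for nucleotide synthesis and 3 each time for repair. In bulk RNA, fewer cells in a cycle phase and less RNA of these genes per cell cannot be told apart.

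Some chromatin regulators of the polycomb family fell too. Of 29 tested genes of DNA methylation and polycomb 7 fell and 2 rose, against 15 falls and 7 rises without M0 replicate 1 and 4, 5 and 4 falls without M1 replicate 1, 2 or 3. Cbx2, Cbx6 and Cbx8, subunits that read the repressive histone mark, changed by −0.94 ± 0.12, −0.79 ± 0.08 and −0.84 ± 0.13. Cbx6 was at 115, 125 and 126 CPM in M1 and 219, 204 and 209.6 in M0, with no overlap. Among the rises was Ezh1, a relative of the subunit gene Ezh2, which fell, with a change of 0.36 for Ezh1 and −0.36 for Ezh2. Ezh2 was not called without M1 replicate 1 or 3 (−0.35 to −0.33).

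Some genes of the circadian clock and of the hypoxia response also fell. Of 21 tested circadian clock genes 8 fell and 2 rose, with a median of −0.30, and without M0 replicate 1 10 fell and 2 rose. Bhlhe41 and Bhlhe40, related repressors that act on clock genes and respond to hypoxia, stood at 43.5, 47.6 and 45.2 and 34.3, 43.6 and 39.1 CPM in M1, against 119, 136 and 116 and 66.7, 120.0 and 89.5 CPM in M0. Tef, an output factor of the clock, was at 62.8, 60.6 and 62.9 against 101, 96.3 and 96.9 CPM, and Csnk1e, a kinase of the PER proteins, at 60.7, 53.6 and 55.7 against 86.5, 97.8 and 99.3. Their changes against M2 were −1.32 for Bhlhe41, −1.34 for Bhlhe40, −0.75 for Tef and −0.81 for Csnk1e, and all 4 were called there as well. The 2 rises were Nfil3, a repressor that opposes Tef and its relatives, at 18.9 ± 2.52 CPM in M1 and 10.2 ± 4.13 in M0 (not called without M1 replicate 1, 0.80), and Arntl2, a relative of the clock activator BMAL1, at 11.3 ± 1.34 and 5.06 ± 1.35.

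Of 22 tested hypoxia response genes 9 fell and 2 rose (Hif3a and P4ha1), with a median of −0.31, or −0.40 without M0 replicate 1. The rises numbered 0 without M1 replicate 2 and 1 without M1 replicate 1, M1 replicate 3 or M0 replicate 2. Egln1, the oxygen-sensing hydroxylase of HIF factors and itself a HIF target, was at 32.6, 38.7 and 35.7 CPM in M1 and 77.1, 85 and 72.5 in M0 (−1.13 ± 0.12, adjusted p = 4.39e-05). Adm, the gene of the vasodilator adrenomedullin, was at 1.15, 1.86 and 1.59 against 4.29, 6.2 and 4.74 CPM, and Ndrg1, a stress-induced gene, at 24.2, 23 and 24.2 against 41.4, 40.4 and 37.5. Vegfa, a classical HIF target, was not called (−0.05 ± 0.18, adjusted p = 0.858). The list as a whole thus held falls, rises and genes that did not pass the test.

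Glycolysis genes overlap with that response. Of 33 tested 11 fell and 1, Pfkp, rose, against 16 lower and 8 higher without M0 replicate 1. Without M1 replicate 1, 2 or 3, 5, 8 and 5 fell, and Pfkp was not called. Slc16a3, the lactate exporter, stood at 53.2, 70.2 and 56.4 CPM in M1 and 186, 159 and 117 in M0 (−1.36 ± 0.18, adjusted p = 0.000265), and Ldha, which makes lactate, at 1201, 1414 and 1254 against 2966, 2132 and 1898. Both were called against M2, with changes of −1.12 and −0.62. The enzymes Eno1 and Tpi1 had 2704, 2967 and 2859.8 and 1261, 1407 and 1307 CPM in M1, against 7293, 4364 and 4094 and 3038, 1764 and 1550.5 CPM in M0. M0 replicate 1 was the highest library for both. Without it they changed by −0.53 and −0.29, and against M2 by −0.56 and −0.31 without a call (adjusted p = 0.0562 and 0.391). With that library out of the fit, both were called lower than in M2 (−0.53 and −0.28, adjusted p = 2.07e-17 and 0.00956). Against M0, Tpi1 was not called when any 1 M1 replicate was left out (−0.72 to −0.64).

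Mitochondrial transcripts fell unevenly. Of 12 tested genes of the mitochondrial genome 7 fell and 1 rose, and without M1 replicate 1, 2 or 3, 4, 5 and 5 fell. mt-Cytb, a subunit of complex III (mitochondrial genome, 14145 to 15288, plus strand), was at 2259, 2666 and 2289 CPM in M1 and 4507, 4975 and 4755 in M0 (−0.98 ± 0.09, adjusted p = 1.52e-05), and mt-Nd1, a subunit of complex I, at 1928, 2121 and 1923 against 3828, 3475 and 3470.5. Against M2 they changed by −0.92 and −0.76, and both were called. mt-Co1, of complex IV, was the rise, with 13954, 13029 and 13418 CPM in M1 and 6518, 10053 and 9979 in M0 (0.61, or 0.44 against M2, adjusted p = 0.0604). Of 46 nuclear genes of the respiratory chain 11 fell and the other 35 did not pass the test, with a median of −0.59. This group moved with M0 replicate 1, which was the highest library for Uqcrh, a complex III subunit, at 92.1, 92.6 and 83.4 CPM in M1 and 322, 159 and 161 in M0. Uqcrh changed by −1.26, by −0.80 without that library and by −0.73 against M2, where it was not called (adjusted p = 0.0534). With that library out of the fit, Uqcrh was called lower than in M2 (−0.69, adjusted p = 1.16e-16). Without that library 23 fell, but the median was −0.13, and against M2 it was −0.12. Without M0 replicate 2 or 3, 36 and 34 fell, and without M1 replicate 1, 2 or 3, 3, 2 and 2. Of 25 citrate cycle genes 9 fell and the other 16 did not pass the test, and 15 fell without M0 replicate 1 and 4, 5 and 5 without M1 replicate 1, 2 or 3. Idh2, the mitochondrial isocitrate dehydrogenase, was at 240.4, 234 and 243 CPM in M1 and 628, 409.8 and 400.4 in M0 (−0.72 without M0 replicate 1 and −0.70 against M2).

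Of 17 tested iron handling genes 4 fell and 3 rose, among them Cp and Slc11a2 (0.53 ± 0.08 for Slc11a2). Without M0 replicate 1, 4 fell and 6 rose. Iron storage genes gave losses that were larger with M0 replicate 1 than without it. Ftl1 and Fth1, the ferritin chains, had 336, 261 and 299 and 1898, 1588 and 1823 CPM in M1, against 1864, 603 and 601 and 5380.0, 2240.2 and 2448 CPM in M0. Ftl1 changed by −1.78 with all libraries and by −0.97 without M0 replicate 1, and Fth1 by −0.92 and −0.37. The call of Fth1 was lost when any 1 M1 replicate was left out (−0.97 to −0.85). Neither was called against M2 (−0.81 and −0.46, adjusted p = 0.176 and 0.315). With M0 replicate 1 out of the fit, both were called lower than in M2 (−0.78 and −0.43, adjusted p = 0.000566 and 0.0011). Tfrc, the transferrin receptor, had 178, 215 and 186 CPM in M1 and 220.1, 426 and 410.0 in M0 (−0.87, or −0.99 against M2, adjusted p = 0.00608), with M0 replicate 1 the lowest of the M0 libraries, and was not called without M1 replicate 1 (−0.81). Hfe, a partner of that receptor, averaged 17.1 ± 1.37 CPM in M1 and 30.7 ± 6.93 in M0. Rps2, a ribosomal protein gene, was among the largest losses in CPM too, with 1026, 1158 and 1136 in M1 and 2489, 1337 and 1313 in M0, and its change of −0.63 was −0.22 without M0 replicate 1 and −0.25 against M2 (adjusted p = 0.511). With M0 replicate 1 out of the fit, Rps2 was called lower than in M2 (−0.22, adjusted p = 8.23e-05). Against M0, Rps2 was not called when any 1 M1 replicate was left out (−0.66 to −0.57).

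The largest falls by fold were in genes of low abundance with varied roles. Abca12, a lipid transporter of keratinocytes (chromosome 1, 71242276 to 71414910, minus strand), was at 2.14, 1.74 and 1.49 CPM in M1 and 9.81, 24.4 and 23.9 in M0 (−3.43 ± 0.34, adjusted p = 3.02e-05). Sgk2, a serum- and glucocorticoid-regulated kinase gene, was at 0.521, 0.523 and 0.694 CPM in M1 and 4.46, 3.76 and 3.69 in M0. Both were also called against M2, with changes of −3.39 for Abca12 and −2.14 for Sgk2.

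Pgf, a growth factor of the VEGF family, averaged 0.236 ± 0.269 CPM in M1 and 2.63 ± 1.003 in M0, and Azgp1, a zinc-binding glycoprotein, 0.406 ± 0.0408 and 3.09 ± 0.627. Gsta1, a glutathione transferase, had 1.3, 1.74 and 1.59 CPM in M1 and 19.1, 8.39 and 6.33 in M0, where M0 replicate 1 was highest, and it changed by −2.86 with that library, −2.20 without it and −2.05 against M2 (adjusted p = 0.00513). Gsta4, another member of the family, had 7.19, 5.35 and 6.001 and 40.5, 18.4 and 21.5 CPM. Col1a2, a chain of type I collagen, averaged 0.266 ± 0.0218 CPM in M1 and 1.91 ± 0.482 in M0. Sept4, Scrg1, Dlk2 and Dhrs2, also among the 12 largest, lay between 0.18 and 0.563 CPM in M1 and between 1.98 and 3.6 CPM in M0, with M0 replicate 1 the highest library for each of them.

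Growth factor signalling and stress lists were mixed. Of 23 tested ERK feedback and target genes 3 rose (Dusp6, Spred3 and Lif) and 5 fell (Dusp4, Dusp2, Etv4, Etv5 and Spry4), or 11 lower without M0 replicate 1. Dusp6, the phosphatase of ERK, was at 114, 103 and 115 CPM in M1 and 23.7, 39.2 and 39.1 in M0, while Dusp4, a nuclear relative, was at 57, 59.8 and 60.7 and 81.9, 119 and 115, so the feedback phosphatases moved in opposite directions (1.70 ± 0.17 and −0.83 ± 0.13). Etv5, a transcription factor gene that ERK signalling induces, was at 0.99, 0.465 and 0.992 CPM in M1 and 1.62, 2.19 and 2.25 in M0, and its relative Etv4, at a lower level, at 0.104, 0.116 and 0.0496 and 0.78, 0.313 and 0.575. Both were called against M2 (−1.16 and −2.46). Igfbp4, a binding protein that limits insulin-like growth factors, averaged 89.4 ± 2.49 CPM in M1 and 235 ± 69.5 in M0 (−1.39, or −1.10 against M2). Of 30 tested genes of the unfolded protein response 9 fell and 3 rose (Atf3, Atf6 and Edem1), against 15 falls and 9 rises without M0 replicate 1 and 6 falls without M1 replicate 1, and those that fell included Herpud1, of degradation at the endoplasmic reticulum (−0.86 ± 0.10), and the chaperone gene Calr (−0.59 ± 0.11), which was not called against M2 (−0.31, adjusted p = 0.0925). Of 24 cholesterol synthesis genes 2 rose (Hmgcs1 and Hsd17b7) and 3 fell, shares of 8.33% and 12.5% that are below those of all genes, and without M0 replicate 1, 9 rose and 5 fell. Those that fell included Insig1, which holds back the activation of SREBP factors (−0.60 ± 0.14, not called without M1 replicate 1, −0.52). Apoe, an apolipoprotein, had 364, 346 and 364 CPM in M1 and 1418, 614 and 598 in M0, a change of −1.29 that was −0.72 without M0 replicate 1 and uncalled against M2 (adjusted p = 0.129). Among the p53 targets 3 were higher (Btg2, Plk2 and Bbc3) and 3 lower (Bax, Zmat3 and Ei24) of 23, shares close to those of all genes, and of 16 genes of the Notch pathway 2 were higher (Notch1 and Maml2) and 1 lower (Rfng). Leaving out M0 replicate 1 gave 10 higher and 7 lower p53 targets and 5 higher and 2 lower Notch genes. Notch1, a receptor gene, was at 28.7, 30.8 and 32.2 CPM in M1 and 2.95, 11.3 and 12.1 in M0, where M0 replicate 1 was the lowest, and it changed by 1.79 with that library and 1.42 without it, and by 1.12 against M2 without a call (adjusted p = 0.0504).

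**Figure D5:**
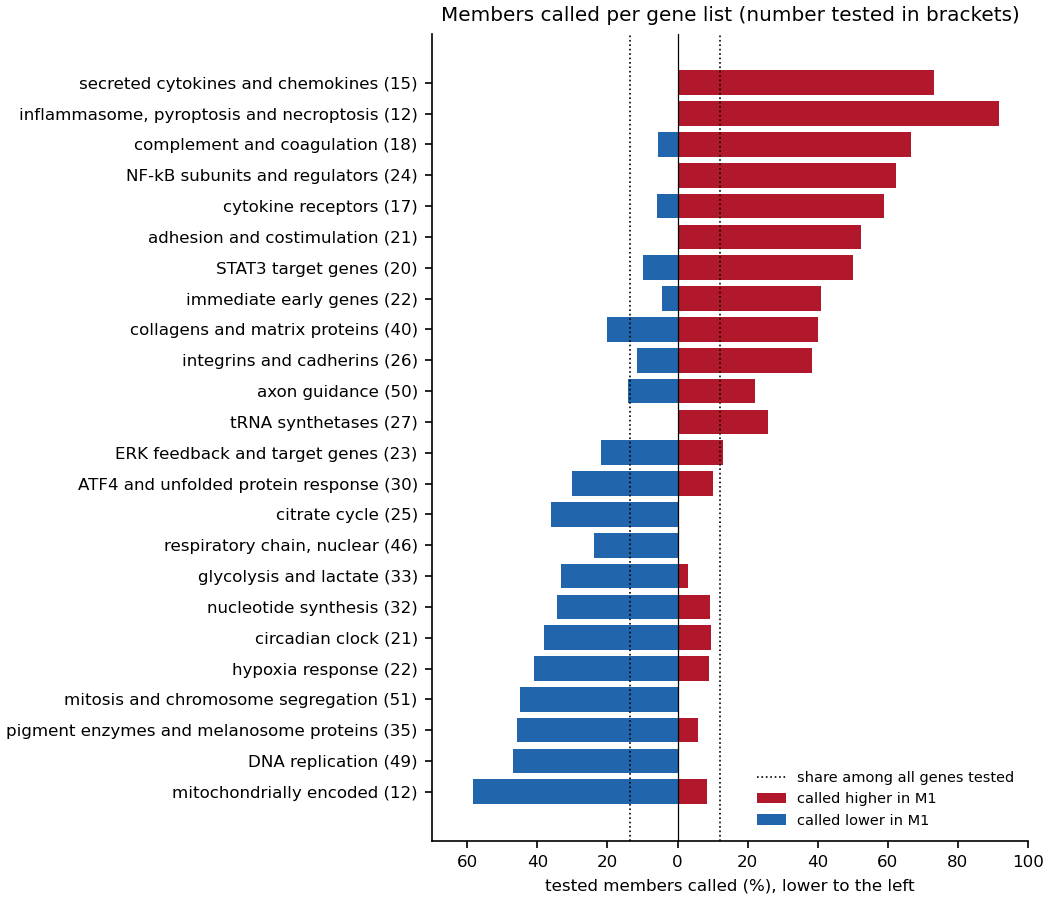
Share of the tested members of 24 gene lists that were called lower (blue, to the left) or higher (red, to the right) in M1 than in M0 in the 12-library fit, in percent, with the number tested in brackets. Dotted lines mark the 13.5% lower and 12.2% higher among all genes tested. Immune lists reach furthest to the right, and mitochondrially encoded, replication, pigment and mitosis genes furthest to the left.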

How the data were processed

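The values deposited by the authors are raw read counts in a single table, whole numbers whose totals differ among the 12 libraries, for 55487 Ensembl genes. The submitters' processing notes list HISAT2 2.0 and mm10, the mouse genome build. For the counter, annotation, strandedness and filters, nothing is given in the sources used here, so reads of overlapping genes and of near-identical copies cannot be separated. Trizol extraction and Illumina mRNA libraries are named per the labels' protocols. Totals were 15916756 to 20863973 counts, and intervals or floors from counts cover counting error only.

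Counts were analysed with edgeR 4.0.16 in R 4.3.3. Genes with few reads were removed by filterByExpr, TMM factors scaled the libraries, and the 12 libraries together entered 1 robust quasi-likelihood fit with a mean per group and shared spread. P-values were adjusted by Benjamini-Hochberg, with calls at an adjusted p under 0.05. The SE was derived from the log2 change and its F statistic (change over the root of F). A group without reads was given a floor of 3 counts over its 3 libraries. The fit was repeated without M0 replicate 1. Alternatives were RLE and upper-quartile factors, no filter, the 6 libraries alone, a replicate block, a length offset (a robust spline of log2 exon length with 5 df), DESeq2 1.42.0, voom in limma 3.58.1 and leaving out each replicate. The 12-library fit was also run on simulated counts. These carried no trend with transcript length, so that run did not test the deviation of M0 replicate 1.

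The groups, 60 gene lists and naming rules were chosen with earlier results of these data known. Named genes were the 12 stable genes with the largest fall, the 12 that fell at least 1.5-fold with the largest loss in CPM, the 12 largest stable rises outside interferon-family symbols, in each list the stable members lowest in adjusted p, at most 4, and check genes. Where 5 or fewer members of a list were called, they were also named, a choice made after their values were seen, as for Kit, Etv4, Etv5, Nos2 and Mmp19. Some genes the rules name are not reported here. Coordinates and exon lengths are from GENCODE M21 (GRCm38), matched for 55227 identifiers, and promoters from RefSeq on GRCm38.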

Additional observations from a re-analysis of the deposited data

How the results depend on the processing

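Without the filter on low counts 1205 genes were lower in M1 than in M0 and 629 lower than in M2, against 1967 and 1094 with it. With only the 6 libraries compared, 891 genes were higher and 391 lower than in M0, 217 of them by at least 2-fold, and 3555 were higher and 3397 lower than in M2. Leaving out 1 library at a time gave 1294 to 3630 higher and 993 to 3426 lower than in M0, and 1060 to 3716 higher and 626 to 3517 lower than in M2, with the top of each range reached without M0 replicate 1. Chosen after seeing the data, a length offset without M0 replicate 1 gave 3678 higher and 3425 lower than in M0 and 3823 and 3453 against M2, and the 5 libraries without M0 replicate 1 gave 3547 and 3511 against M0. RLE factors called 3652 genes in all, upper-quartile factors 3894, DESeq2 4505, voom 3710, the length offset 4385 and the replicate block 3156, against 3744, and no gene called in both was called in opposite directions. Upper-quartile factors moved the median log2 change of all genes to −0.07, against −0.02.

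The deviations of M1 and M0 libraries with the same number from their group means had correlations of −0.01, 0.04 and −0.06. M0 replicate 1 dominates the deviations within M0, so these values cannot show whether the numbers pair samples. The replicate block gave 1602 higher and 1554 lower.

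Of 203 named genes 196 were called, and 198 kept their direction in every alternative run. The exceptions were Gsdme (−0.23 with the length offset, −0.11 with offset and replicate block), Pfkp (−0.19 and −0.14), Tyrp1 (0.0056 and 0.0326, 0.0152 without M0 replicate 2, 0.0164 without M0 replicate 3, −0.23 without M0 replicate 1), Vegfa (0.0124 with offset and replicate block, 0.18 without M0 replicate 2, −0.21 without M0 replicate 1) and Sox10 (0.0479 without M0 replicate 1, 0.0497 with the offset as well, 0.0398 with the 5 libraries alone, −0.25 without M0 replicate 3). The cause was not tested. Of these 5 genes Pfkp alone was called with all libraries. Gsdme was called higher without M0 replicate 1. With only the 6 libraries 62 named genes lost their call, with the replicate block 10, and without M1 replicate 1, 2 or 3, 27, 19 and 24. Genes named without a level whose call was lost without at least 1 library had these log2 changes there: Atf6 (0.49 to 0.56), Fos (0.70), Hif3a (0.85 to 1.02), Hmgcs1 (0.33 to 0.34), Itgb4 (−0.85), Lgr5 (−1.82 to −1.17), Mcl1 (−0.30 to −0.26), Mmp17 (−0.97), Myc (−0.33), Nes (0.31 to 0.40), P4ha1 (0.35), Pde4a (0.51), Pfkp (0.21 to 0.28), Pias4 (−0.53 to −0.50), Rad51c (0.39), Spry4 (−1.49 to −1.26), Tpcn2 (0.59 to 0.60), Wnt6 (−1.50 to −0.92) and Zmat3 (−0.71 to −0.70). Depth limits the low genes, and Etv4 rested on 5 counts over the 3 M1 libraries and 31 over the 3 M0 libraries.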
